A study of Mus musculus with 4 samples.

Results

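The microRNAs (miRNAs) described here are 36 probes for miRNAs that are known from tissues other than liver. They were measured in 2 normal mouse livers and 2 mouse liver tumours. They were chosen by name, with no rule on their values, from the 566 mouse miRNA probes of the table. Earlier results of these data were known when the list was made. The list holds 7 probes for miRNAs of skeletal and cardiac muscle, 4 for miRNAs of pancreas, 9 for miRNAs of neurons and 16 for miRNAs of pluripotent cells. None of the 36 probes was named for more than 1 miRNA. Per the labels, female mice with both Nf2 alleles floxed (NF2fl/fl) were given PBS or AAV2/8-Cre, an adeno-associated virus that carries Cre recombinase to delete Nf2 in hepatocytes. The product of Nf2, merlin, is a tumour suppressor that acts upstream of the Hippo pathway. Tumours were dissected when livers were examined after 50 weeks, and the protocol gives 3 mice. The labels do not say whether the normal samples came from PBS mice, whether any sample was pooled, or whether replicates are different animals. The p-values below therefore measure only how far these samples differ from each other, and that spread may be technical.

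A miRNA guides the silencing complex to messenger RNAs that pair with its seed, bases 2 to 8 from its 5′ end, and lowers their output. Many miRNAs are made in a few cell types only. MiR-1 and miR-133a are transcribed together in skeletal and cardiac muscle, miR-206 and miR-133b in skeletal muscle, and miR-208a, miR-208b and miR-499 lie in myosin heavy chain genes. MiR-124 and miR-9 are typical of neurons and their progenitors, miR-375 of islet cells, and miR-216a, miR-216b and miR-217 of acinar cells of the pancreas. The miR-290 to miR-295 and miR-302 and miR-367 clusters are made in embryonic stem cells and the early embryo and are silenced in adult tissue. Hepatocytes are not known as a main source of any of these groups.

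Mature sequences were taken from RefSeq (GRCm38.p6) for 29 of the 36 members. MiR-1, miR-133a, miR-124, miR-375, miR-383, miR-292-3p and miR-302a are given by name only. A probe named without an arm was matched to the arm that the older naming left unmarked. The sequences below are those that the results turn on, 5′ to 3′, with the seed in capitals. The first set compares muscle miRNAs.
miR-206-3p: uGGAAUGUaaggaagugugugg
miR-133b-3p: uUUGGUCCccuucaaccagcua
miR-208a-3p: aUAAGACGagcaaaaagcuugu
miR-208b-3p: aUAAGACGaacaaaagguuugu
miR-499-5p: uUAAGACUugcagugauguuu

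The genes of miR-206 and miR-133b span 3878 bases on chromosome 1 (chr1:20679010-20682887), within the long noncoding RNA gene Lincmd1. MiR-208a lies within Myh6 (chr14:54949072-54949093), miR-208b within Myh7 (chr14:54975710-54975731) and miR-499 within Myh7b (chr2:155622893-155622913). MiR-208a and miR-208b matched at 19 of 22 bases and in all 7 seed bases. MiR-499 matched miR-208a at 6 of the 7 seed bases. One copy each of the miR-1 and miR-133a genes lies within 9435 bases on chromosome 2 (chr2:180389048-180398482).

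The second set shows the neuronal miRNAs with the largest or most frequently detected signals that have a sequence, miR-137 and miR-219. MiR-137 (chr3:118433901-118433923) lies in no other annotated gene. MiR-219 has 2 annotated copies, and the copy given here (chr17:34025052-34025072) lies in no other annotated gene.
miR-137-3p: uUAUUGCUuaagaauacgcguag
miR-219a-5p: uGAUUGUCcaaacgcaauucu

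The third set shows miRNAs of pluripotent cells beside miRNAs that liver makes and that share seed letters with them.
miR-291a-3p: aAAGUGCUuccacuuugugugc
miR-294-3p: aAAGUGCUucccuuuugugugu
miR-295-3p: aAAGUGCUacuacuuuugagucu
miR-302b-3p: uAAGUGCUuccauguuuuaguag
miR-302d-3p: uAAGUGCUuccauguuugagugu
miR-93-5p: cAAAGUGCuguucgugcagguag
miR-106b-5p: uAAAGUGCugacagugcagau
miR-367-3p: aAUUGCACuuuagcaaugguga
miR-25-3p: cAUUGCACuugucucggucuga
miR-32-5p: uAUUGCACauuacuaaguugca

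MiR-291a-3p, miR-294, miR-295, miR-302b and miR-302d carried the same seed, and 7 of the 14 pluripotency members with a sequence held the letters AAGUGC in their seed. The seeds of miR-93 and miR-106b hold the same 6 letters, shifted by 1 base. MiR-367 shared all 7 seed bases with miR-25 and miR-32 but matched them at 12 and 13 of 22 bases over the whole miRNA. The miR-290 to miR-295 genes lie within 2216 bases on chromosome 7 (chr7:3218626-3220841), and the miR-302 and miR-367 genes within 580 bases on chromosome 3 (chr3:127545228-127545807), inside Larp7.

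Expression was measured with the nCounter miRNA assay, which counts colour-coded probes one by one. The deposited values, called scaled counts here, were whole probe counts times 1 factor per sample, so the counts themselves (recovered counts) could be read back. Recovered counts of mouse miRNAs totalled 68260 and 62054 in normal tissue and 239727 and 123818 in tumour tissue. The total of liver tumour 1 was thus 3.51 times that of normal liver 1. The 6 negative controls of a sample set its background, and a miRNA above their mean plus 2 SD is called detected there. These thresholds were 18.3 and 11.2 recovered counts in normal tissue and 17.6 and 14.9 in tumour tissue. On the scaled axis they were 38.2, 25.6, 6.95 and 13.5, so a scaled level that counts as background in a normal liver could count as detected in a tumour. Probes for miRNAs of mouse herpesviruses, 33 in all, served as a second reading of background. Their median recovered count was 11 and 9 in normal tissue and 15 and 6 in tumour tissue. The hepatocyte miRNA miR-122 gave 11760 and 12674 recovered counts in normal tissue and 31635 and 18105 in tumour tissue, so this marker of the labelled tissue was abundant in every sample.

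The 36 members lay close to background. Their median recovered count was 7 and 6 in normal tissue and 13.5 and 5 in tumour tissue, below the median of the virus probes in every sample. Summed over all 36 probes they gave 325 and 301 recovered counts in normal tissue and 731 and 269 in tumour tissue. That was 0.476% and 0.485% of mouse miRNA counts in normal liver and 0.305% and 0.217% in tumours, background included. The mean negative control was 8.83 and 7.67 recovered counts in normal tissue and 7.5 and 7.67 in tumour tissue. It did not rise with the totals, so the share of a probe at background falls as the total rises. The lower shares in tumours therefore do not by themselves show a lower level of these miRNAs. In bulk tissue, fewer cells of a type and less RNA per cell could also not be told apart.

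Members passed the threshold in 8.33% to 33.3% of cases per sample, and virus probes in 6.06% to 36.4%. In normal liver replicate 1, 3 of 36 members (8.33%) passed the threshold, against 15.2% of virus probes and 28.8% of all mouse miRNA probes. In normal liver replicate 2, 11 members (30.6%) passed, against 27.3% of virus probes and 48.1% of mouse miRNA probes. In liver tumour replicate 1, 12 members (33.3%) passed, against 36.4% of virus probes and 54.9% of mouse miRNA probes. In liver tumour replicate 2, 3 members (8.33%) passed, against 6.06% of virus probes and 36.9% of mouse miRNA probes. The share of members was thus below that of all mouse miRNA probes in each of the 4 samples. For members, virus probes and all mouse miRNA probes alike the share was highest in liver tumour replicate 1 and next highest in normal liver replicate 2.

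**Figure D1:**
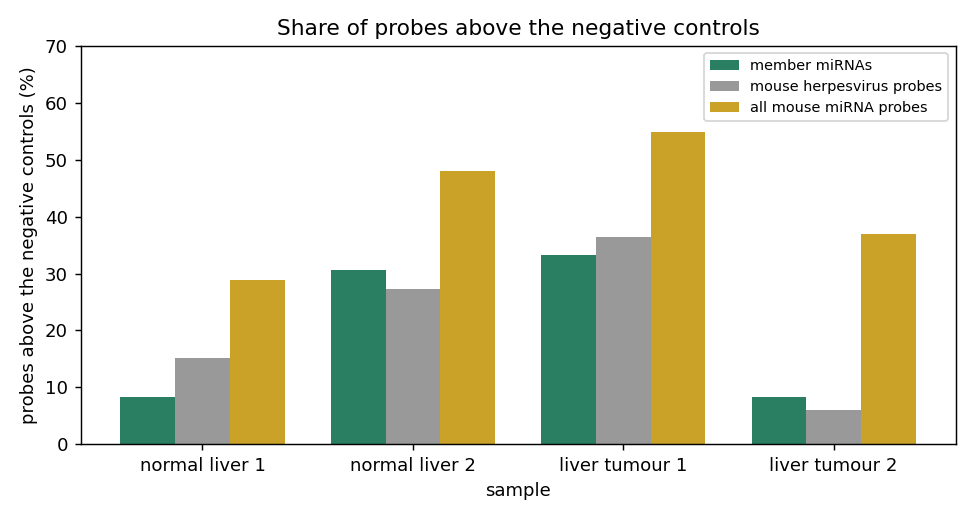
Share of probes (percent) above the mean plus 2 SD of the negative controls in each of the 4 samples, for the 36 members, 33 mouse herpesvirus probes and 566 mouse miRNA probes. Members range from 8.33% to 33.3% and lie below all mouse miRNA probes in every sample.

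Across samples, 16 of 36 members were detected in at least 1 sample, against 62.2% of mouse miRNA probes. None of the 36 was detected in all 4 samples, against 24% of mouse miRNA probes. Detected in both normal livers were 2 members, miR-124 and miR-137 (27% of mouse miRNA probes). Detected in both tumours were 3, miR-1, miR-206 and miR-219 (35.9% of mouse miRNA probes). By tissue, 5 of 7 muscle, 8 of 9 neuronal, 1 of 4 pancreatic and 2 of 16 pluripotency miRNAs were detected at least once. When the mean plus 2 SD of the virus probes was taken as the threshold, 3 members passed in any sample, namely miR-1 and miR-133a in liver tumour replicate 1 and miR-137 in normal liver replicate 1.

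**Figure D2:**
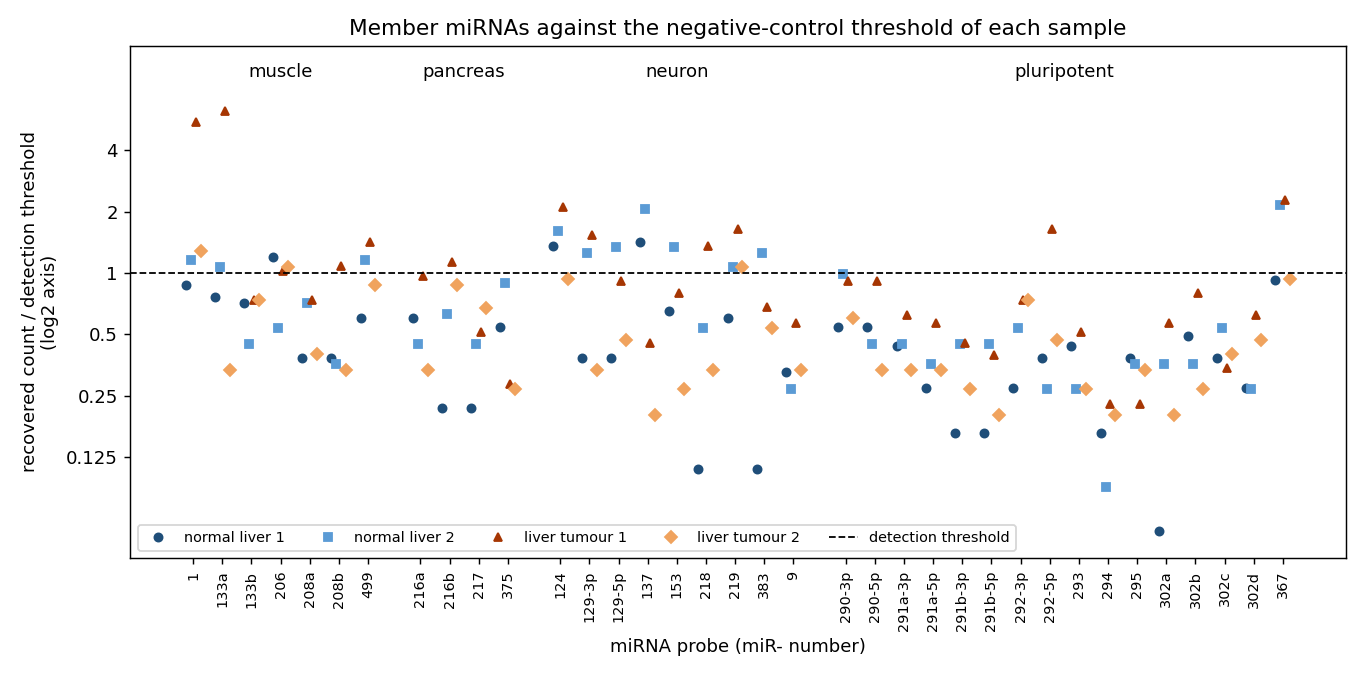
Recovered count of each member divided by the detection threshold of the same sample (log2 axis), by tissue, for the 2 normal livers and 2 tumours; the dashed line marks the threshold. Most points lie below the line, and the highest are miR-1 and miR-133a in liver tumour 1.

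MiR-1 and miR-133a, 2 of the 7 muscle miRNAs, stood out in liver tumour replicate 1. MiR-1, which promotes muscle differentiation, gave 16 and 13 recovered counts in normal tissue and 97 and 19 in tumour tissue. Counts of both tumours lay above both normal livers, and it was detected in both tumours and in normal liver replicate 2. MiR-133a, transcribed with miR-1 and active in muscle growth, gave 14 and 12 recovered counts in normal tissue and 110 and 5 in tumour tissue. It was detected in liver tumour replicate 1 and narrowly in normal liver replicate 2, and the second tumour had the lowest count of the 4 samples. The exact Poisson interval (95%, counting error only) of the count in liver tumour replicate 1 was 78.7 to 118 for miR-1 and 90.4 to 132.6 for miR-133a. These intervals lay above those of the other 3 samples, whose highest bound was 29.7 for miR-1 and 23.5 for miR-133a. For miR-1 the count in liver tumour replicate 1 was 5.11 times that of the next highest sample, the other tumour, while the total of mouse miRNA counts was 1.94 times as high. For miR-133a it was 7.86 times that of the next highest sample, normal liver replicate 1, while the total was 3.51 times as high.

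The other muscle miRNAs did not share this pattern. MiR-206, the skeletal muscle relative of miR-1, gave 22 and 6 recovered counts in normal tissue and 18 and 16 in tumour tissue, and its groups overlapped. MiR-133b, encoded beside miR-206, gave 13 and 5 in normal tissue and 13 and 11 in tumour tissue and was detected in no sample. MiR-499, from a myosin gene of slow and cardiac muscle, gave 11 and 13 in normal tissue and 25 and 13 in tumour tissue and was detected in 1 sample of each group. MiR-208b was detected in liver tumour replicate 1 alone, at 19 recovered counts, against 7 and 4 in the normal livers and 5 in the other tumour. MiR-208a, the cardiac myosin miRNA, was detected in no sample (7 and 8 counts, then 13 and 6). Thus miR-1 and miR-133a were high together in 1 of the tumours, while the cardiac and other skeletal muscle miRNAs stayed at counts of 25 or less.

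**Figure D3:**
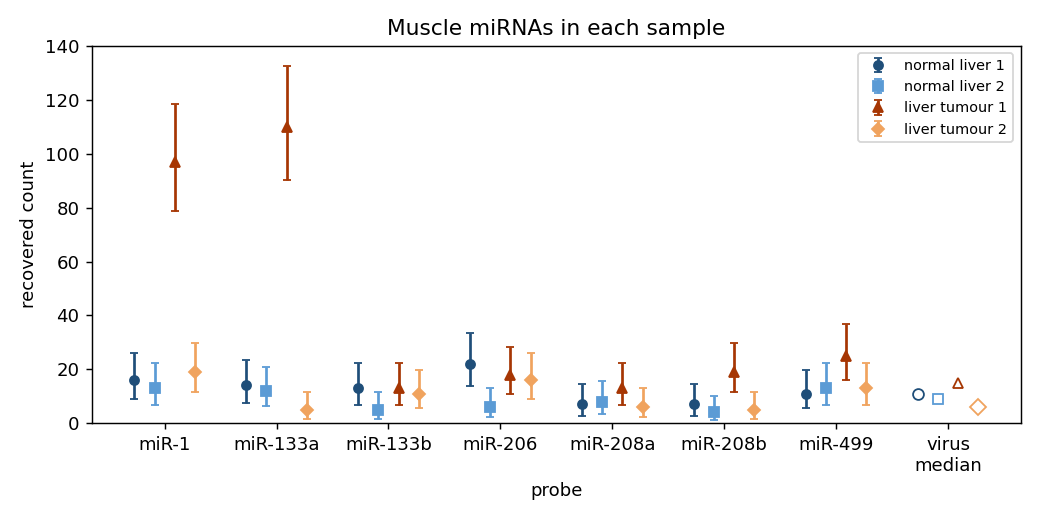
Recovered counts of the 7 muscle miRNAs in each sample with exact Poisson 95% intervals, and, as open symbols, the median of the virus probes. MiR-1 at 97 and miR-133a at 110 in liver tumour 1 lie above every other point, which are all at 25 or less.

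As a share of mouse miRNA counts, which takes the total into account without the authors' scaling, both miRNAs were highest in liver tumour replicate 1 and lowest in replicate 2. MiR-133a took 0.0205% and 0.0193% of mouse miRNA counts in the normal livers, 0.0459% in liver tumour replicate 1 and 0.00404% in replicate 2. MiR-1 took 0.0234% and 0.0209% in normal tissue and 0.0405% and 0.0153% in tumour tissue, so its groups overlapped as shares though not as recovered counts. The mean negative control was 7.5 to 8.83 recovered counts in every sample, so these shares hold more background where the total is lower. Both miRNAs were below the threshold in normal liver replicate 1, and miR-133a also in liver tumour replicate 2. Shares below the threshold are not measured levels. As scaled counts miR-1 averaged 31.6 ± 2.49 in normal liver and 27.8 ± 14.9 in tumours (SD, n = 2 per group). MiR-133a averaged 28.4 ± 1.17 in normal liver and 23.99 ± 27.5 in tumours, so the spread between the tumours exceeded the difference between the groups. A probe for a miRNA of a mouse gammaherpesvirus, M1-7-5p, also peaked in liver tumour replicate 1, at 159 recovered counts, against 30 and 37 in the normal livers and 49 in the other tumour. In all, 27 of 36 members (75.0%), 69.7% of virus probes and 78.1% of mouse miRNA probes had their highest recovered count in that tumour. Smooth muscle miRNAs, which mark vessel walls and contractile stromal cells, were detected in all 4 samples. MiR-145 gave 303 and 204 recovered counts in normal tissue and 1810 and 557 in tumour tissue, and the scaled counts of miR-143 were 169 and 163, then 243.7 and 134. Limma called neither of them (log2 difference 0.14, adjusted p = 0.723, and 0.12, adjusted p = 0.786). Their part in the counts of miR-1 and miR-133a was not tested.

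Neuronal miRNAs were the list with the most detected members, at low counts. MiR-124, which promotes neuronal differentiation, gave 25 and 18 recovered counts in normal tissue and 37 and 14 in tumour tissue. It was detected in both normal livers and in liver tumour replicate 1. MiR-219, known from the brain, where it promotes oligodendrocyte maturation, gave 11 and 12 in normal tissue and 29 and 16 in tumour tissue. It was detected in both tumours and in normal liver replicate 2, and its recovered counts were higher in both tumours than in both normal livers. MiR-129-3p gave 7 and 14, then 27 and 5, and was detected in 1 sample of each group.

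MiR-137 was the only member detected in both normal livers and in neither tumour. This regulator of neuronal maturation gave 26 and 23 recovered counts in normal tissue and 8 and 3 in tumour tissue, although total mouse miRNA counts were higher in the tumours. Counting intervals were 16.98 to 38.1 and 14.6 to 34.5 in the normal livers, and 3.45 to 15.8 and 0.619 to 8.77 in the tumours. With the tumours set at their detection thresholds its scaled level was 5.53-fold lower in tumours, a value that still counts background in the normal livers as signal. Its pattern was shared by 3 of 566 mouse miRNA probes, miR-137 included (0.530%), and by 1 of 33 virus probes. That virus probe, m107-1-5p of mouse cytomegalovirus, gave 24 and 17 recovered counts in normal tissue and 14 and 4 in tumour tissue.

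The remaining neuronal members gave no steady signal in a group. MiR-153, which lies in Ptprn2, gave 12 and 15 recovered counts in normal tissue and 14 and 4 in tumour tissue and was detected in normal liver replicate 2 alone. MiR-129-5p gave 7 and 15, then 16 and 7, and miR-383 gave 2 and 14, then 12 and 8. Both were also detected in normal liver replicate 2 alone. MiR-218, at least 1 of whose 2 annotated copies lies in the axon guidance gene Slit3, was detected in liver tumour replicate 1 alone. It gave 2 and 6 in normal tissue and 24 and 5 in tumour tissue. MiR-9, abundant in neural progenitors, was detected in no sample and gave 6 and 3, then 10 and 5. In all, 4 of the 9 neuronal probes were detected in a single sample only.

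Of 8 further miRNAs enriched in neurons but made in other tissues too, 1 was detected in all 4 samples and 2 in none. The one in all 4 was miR-338-3p (31 and 32 recovered counts in normal tissue and 92 and 39 in tumour tissue). MiR-132, induced by the transcription factor CREB, gave 16 and 19 in normal tissue and 186 and 69 in tumour tissue. Of 5 of these 8 that passed the filter on low values described below, limma called 3 lower and 1, miR-132, higher (log2 difference 0.81, adjusted p = 0.0457), against 46.7% lower and 7.97% higher of all 276 miRNAs that passed. The median was -0.97 for the 5 and -0.90 for all 276, so the list is near the whole table.

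Pancreatic miRNAs passed the threshold for 1 probe in 1 sample. MiR-216b, of the acinar cluster, gave 4 and 7 recovered counts in normal tissue and 20 and 13 in tumour tissue, and passed the threshold in liver tumour replicate 1 alone. Its neighbour miR-216a gave 11 and 5, then 17 and 5, and miR-217 gave 4 and 5, then 9 and 10, all below the thresholds. MiR-375, which restrains insulin release, gave 10 and 10 in normal tissue and 5 and 4 in tumour tissue. It was 1 of 2 members, with miR-137, whose recovered counts were lower in both tumours than in both normal livers (3.71% of mouse miRNA probes and 9.09% of virus probes), but no sample reached its threshold. At these thresholds a pancreatic miRNA could have made up 0.0269% and 0.0180% of mouse miRNA counts in normal tissue and 0.00734% and 0.0120% in tumour tissue, without being called detected.

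Pluripotency miRNAs were mostly undetected. Of 16 probes 14 were detected in no sample, and these 14 gave between 1 and 16 recovered counts. None of the 5 members shown above with the seed of miR-294 was detected. MiR-294, a main miRNA of embryonic stem cells, gave 3 and 1 recovered counts in normal tissue and 4 and 3 in tumour tissue. MiR-302d gave 5 and 3, then 11 and 7, and miR-291a-3p gave 8 and 5, then 11 and 5. MiR-292-5p was detected in liver tumour replicate 1 alone, at 29 recovered counts, against 7 and 3 in the normal livers and 7 in the other tumour. The opposite arm of its hairpin, miR-292-3p, gave 5 and 6, then 13 and 11, and passed no threshold.

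MiR-367 had the highest counts of this list in every sample. It gave 17 and 24 recovered counts in normal tissue and 40 and 14 in tumour tissue, and was detected in normal liver replicate 2 and in liver tumour replicate 1. The 4 members encoded within 580 bases of it, miR-302a to miR-302d, gave between 1 and 14 recovered counts and were detected in no sample. Of 4 further miRNAs with the seed of miR-367, 2 were detected in all 4 samples. MiR-25 gave 151 and 117 recovered counts in normal tissue and 1351 and 714 in tumour tissue, and the scaled counts of miR-32 were 50.1 and 55.1, then 55.7 and 65.2. Limma called miR-25 higher (log2 difference 1.01, adjusted p = 0.0196) but not miR-32 (0.19, adjusted p = 0.557). The 2 other relatives with that seed, miR-92a and miR-363, were detected in no sample. Whether miR-25 or miR-32 contributes to the count of miR-367 was not tested.

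The miRNAs that share the AAGUGC core with the stem cell clusters were detected throughout. All 4 of their probes passed the threshold in all 4 samples. The scaled counts of miR-106b were 62.6 and 59.7 in normal tissue and 122.5 and 95.9 in tumour tissue. MiR-93 gave 23 and 27, then 157 and 104 recovered counts. The most abundant was the probe shared by miR-20a and miR-20b, with 215 and 172 recovered counts in normal tissue and 1033 and 520 in tumour tissue. Limma called 1 of these 4 higher, miR-106b (log2 difference 0.82, adjusted p = 0.0405), and 0 lower (0 at an unadjusted p under 0.05), with a median of 0.27, beside the shares and the median of all 276 given above.

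The tumours were compared with the normal livers as tissues. In the deposited scaling limma called 4 members lower in tumours and 0 higher (0 at an unadjusted p under 0.05, and 0 in edgeR), among 7 that passed the filter on low values. The 4 were neuronal miR-124 and miR-219, cardiac miR-499 and pluripotency miR-367. The test was limma on log2(value + 1) of scaled counts over 276 mouse miRNAs with a mean log2 value above 3.93, which is 2 SD over the mean of the scaled negative controls. Adding 1 understates the change of low miRNAs. Of all 276, limma called 46.7% lower and 7.97% higher, so 4 of 7 lower is near the share of the whole table. The median difference was -1.21 for the 7 members and -0.90 for all 276. The filter used the mean over all 4 samples, and 5 of the 7, with all 4 that were called, passed it through the normal livers alone. Their mean log2 value in tumours, 3.87 for miR-124, 3.92 for miR-367, 3.80 for miR-219 and 3.56 for miR-499, lay under the filter. With a tumour mean under the filter, a member could pass only if it was higher in normal livers, so neither the count nor the median of the 7 bears on the 36. The same held for 63.6% of all miRNAs called lower.

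Markers of liver cell types also moved in the deposited scaling. Limma called all 6 hepatocyte markers lower, with a median log2 difference of -1.36, and miR-802 went from 50 and 60 recovered counts in normal tissue to 20 and 6 in tumours. Of 5 bile duct markers 4 were tested, and 3 were called higher (miR-200a, miR-200b and miR-429) and 1, miR-200c, lower. MiR-200c gave 17 and 9 recovered counts in normal tissue and 33 and 9 in tumour tissue. It was detected in liver tumour replicate 1 alone, so its call compares values near background. Of 6 mesenchymal markers 3 were called higher and 0 lower. Of 5 leukocyte markers 2 were called lower, of 2 endothelial markers 1 was, and neither of the 2 erythroid markers was called. Summed recovered counts of hepatocyte markers were 15664 and 15974 in normal tissue and 38945 and 21737 in tumour tissue, those of bile duct markers 99 and 92, then 3293 and 1393, and those of mesenchymal markers 1221 and 962, then 14831 and 4860. Every marker was detected in at least 1 sample. Their part in the differences of the members was not tested.

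MiR-124 had the largest difference of the 7. Its scaled counts were 52.1 and 41.3 in normal tissue and 14.6 and 12.7 in tumour tissue, which is -1.70 on the log2 scale (SE 0.27, limma adjusted p = 0.00359). MiR-367 went from 35.5 and 55.1 to 15.8 and 12.7, or -1.58 on the log2 scale (SE 0.31, adjusted p = 0.00772). MiR-499 went from 22.9 and 29.9 to 9.88 and 11.8, or -1.21 (SE 0.28, adjusted p = 0.0115). MiR-219 went from 22.9 and 27.6 to 11.5 and 14.5, or -0.91 (SE 0.27, adjusted p = 0.0296). In each of the 4 both tumours lay below both normal livers in scaled counts. In recovered counts the groups of miR-124, miR-367 and miR-499 overlapped, and those of miR-219 lay the other way round, higher in both tumours.

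The other 3 tested members were muscle miRNAs and were not called. The log2 difference was -0.28 for miR-1 (SE 0.40, limma adjusted p = 0.582), -0.91 for miR-133a (SE 0.88, adjusted p = 0.412) and -1.23 for miR-206 (SE 0.59, adjusted p = 0.119). Without liver tumour replicate 1, miR-133a was called lower (-2.41, adjusted p = 0.00232), and without liver tumour replicate 2 its difference turned to 0.60 (adjusted p = 0.161). MiR-206 was the last member to pass the filter, with a mean log2 value of 4.10, and miR-137 the first to miss it, at 3.87.

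The probes for virus miRNAs moved the same way as the members in scaled counts. When they were added to the test, limma called 7 of the 8 virus probes that passed the filter lower and 0 higher, with a median log2 difference of -1.83. These 8 were kept by the same filter on the mean over all 4 samples, so neither their count nor their median is independent of it. Scaled negative controls differed by -1.79 on the log2 scale. Over all 36 members the median difference was -1.22, with 36 of 36 below 0, against -1.75 for the 33 virus probes and -1.20 for the 566 mouse miRNA probes. Scaled values of 26 members were lower in both tumours than in both normal livers, which held for 72.3% of mouse miRNA probes and 84.8% of virus probes. None of the 36 was higher in both tumours (8.3% of mouse miRNA probes). In recovered counts 6 members were higher and 2 lower in both tumours, against 39% and 3.71% of mouse miRNA probes. The factors that raise counts in the normal livers, 2.09 and 2.30 against 0.395 and 0.905 in the tumours, raise a background count as much as a signal.

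Without the filter, all 36 members were tested with the 566 mouse miRNA probes. Limma then called 19 members lower, among them 3 of the 4 called with the filter but not miR-219 (adjusted p = 0.0563), and 0 higher (0 at an unadjusted p under 0.05), against 48.8% and 2.83% of all probes. The 19 were 11 of 16 pluripotency, 4 of 9 neuronal, 2 of 7 muscle and 2 of 4 pancreatic miRNAs. The largest difference was that of miR-137 (-3.79, SE 0.31, adjusted p = 0.00683), the second lowest of 566. MiR-375 (-2.62, adjusted p = 0.00974) and miR-153 (-2.47, adjusted p = 0.00974) followed. Of the 11 pluripotency miRNAs called lower, 10 were detected in no sample, so those calls compare values below the detection thresholds. The same holds for the calls of miR-375, miR-216a and miR-208a, which were also detected in no sample.

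The calls did not hold across scalings. With equal totals 2 of the 7 were called lower (26.8% of all 276 lower and 12.3% higher), with equal medians 1, miR-124 (18.1% lower and 21.4% higher), and 0 when positive controls were made equal (3.62% lower and 15.9% higher; 0 members at an unadjusted p under 0.05). These counts of 7 are near the shares of the whole table. The quasi-likelihood test of edgeR on recovered counts called 0 of the 7 in either direction (1, miR-124, lower at an unadjusted p under 0.05), against 14.1% of miRNAs lower and 25.7% higher. In edgeR the log2 difference was 0.73 for miR-1 and 0.76 for miR-133a (adjusted p = 0.244 and 0.458), and -0.90 for miR-124 (adjusted p = 0.0808). With the mean scaled negative control subtracted, limma called 0 of the 7 (1 lower at an unadjusted p under 0.05), against 0% of all 276 lower and 3.26% higher. MiR-124 and miR-367 kept a negative difference with equal medians, equal totals, quantile normalization, equal positive controls and in edgeR, whereas miR-1 turned positive in each of these 5. With counts without scaling miR-124 and miR-367 were positive too, at 0.10 and 0.23 on the log2 scale. Both had passed the filter through the normal livers alone, so their sign is not independent of that filter.

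**Figure D4:**
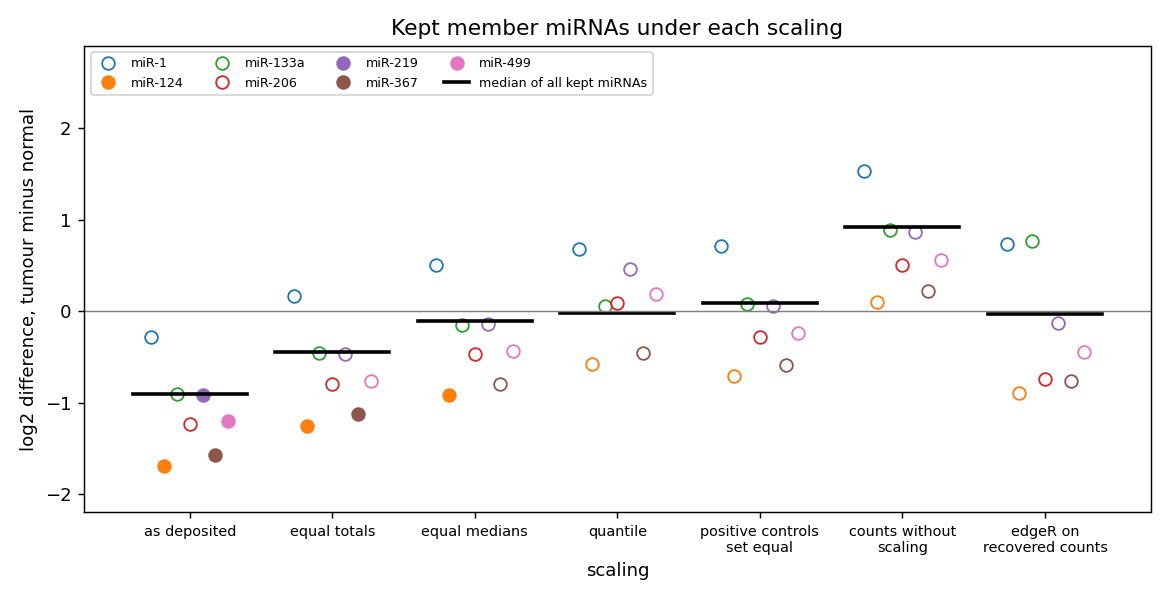
Log2 difference, tumour minus normal, of the 7 tested members under 7 scalings; filled symbols passed an adjusted p of 0.05, open ones did not, and black bars give the median of all 276 tested miRNAs. Filled symbols number 4 as deposited, 2 with equal totals and 1 with equal medians, and none elsewhere.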

How the data were processed

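The deposited table gives signal values for 618 probes in 4 samples, made by the authors from nCounter probe counts, per the labels' protocols. Which software made them, and what set each sample's factor, is not given in the sources used here. Values of miRNA, virus and messenger RNA probes were divided by the step between low values, and 100% came out whole within 0.1 count. The 15 control, plant and worm probes were deposited as unscaled counts. Detection used the mean plus 2 SD of the negative controls per sample. The main test was limma 3.58.1 in R 4.3.3 on log2(value + 1), two-sided, called at 0.05 after Benjamini-Hochberg adjustment over 276 kept miRNAs. The filter used the mean plus 2 SD of the 6 means of the scaled negative controls over samples. The planned wording did not say which values the SD covers: the SD over all 24 single values was run first and kept 0 members, and the 6 means, used in an earlier analysis of these data, were then taken. EdgeR 4.0.16 and DESeq2 1.42.0 were run on recovered counts. Tested on simulated data with 60 of 276 miRNAs changed by 2 on the log2 scale, limma recovered 58 with 1 false call. The simulation gave scaled background no difference between groups, whereas scaled negative controls of the data differed by -1.79 on the log2 scale. It therefore does not bear on false calls near background, where the members lie. The planned rule gave values per sample for members that passed the filter or were detected at least once. Values were also given, outside that rule, for miR-133b, miR-208a, miR-9, miR-216a, miR-217, miR-375, miR-291a-3p, miR-292-3p, miR-294 and miR-302d. None of these passed the filter or was detected in any sample. The members and lists were chosen with earlier results of these data known. Total counts per sample and what they limit are given in the report. Intervals cover counting error only.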

Additional observations from a re-analysis of the deposited data

Results flagged for a closer look

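Among probes outside the miRNAs of the mouse, 2 for herpesvirus miRNAs passed the detection threshold in all 4 samples. M1-7-5p of a mouse gammaherpesvirus gave 30 and 37 recovered counts in normal tissue and 159 and 49 in tumour tissue. M87-1 of mouse cytomegalovirus gave 26 and 30 in normal tissue and 44 and 20 in tumour tissue. No sample is labelled as infected. None of the 36 members was detected in all 4 samples.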

How the results depend on the processing

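The count of 16 members detected at least once became 13 with the mean plus 3 SD, 17 with the highest negative control and 3 with the mean plus 2 SD of the virus probes, and was 12 to 16 when single samples were left out. The 4 members called lower by limma became 2 with equal totals, 1 with equal medians and 19 without a filter (3 of the 4 among them). Of all tested miRNAs 26.8%, 18.1% and 48.8% were called lower there, in that order. At an unadjusted limma p under 0.05, 3, 2 and 22 members were lower there. The count was 0 with quantile normalization, with the positive controls set equal, with counts without scaling, with background subtracted, in edgeR and in DESeq2. Of all tested miRNAs 4.71%, 3.62%, 0.362%, 0%, 14.1% and 4.35% were called lower in these, in that order. In these, 0 to 1 members in either direction had an unadjusted p under 0.05. Without each sample in turn the count was 1 to 4, and it was 1 without normal liver replicate 2, where miR-124 alone stayed. With the replicate number as a block limma called 6 lower (51.8% of all kept miRNAs), miR-133a (adjusted p = 0.0347) and miR-206 (adjusted p = 0.00367) in addition. Deviations of same-numbered samples from their group means correlated with r = 0.042 over 276 miRNAs. This 1 correlation from 4 samples cannot decide whether same-numbered samples share an animal. A filter over all 24 single control values kept 0 members, so the limma calls above, other than those without a filter, rest on the filter by the 6 control means, which was taken after this was seen. The counts without scaling and the virus probes added to the test were also chosen after seeing the data, and the latter left 4 called lower. In no setting was a member called higher. Of 140 single-member values under other settings, 26 changed sign. MiR-1 turned to 0.50 with equal medians, 0.68 with quantile normalization, 0.17 with equal totals, 0.71 with the positive controls set equal, 1.53 with counts without scaling, 0.49 with background subtracted, 0.73 in edgeR, 0.71 in DESeq2 and 0.27 without liver tumour replicate 2 (-0.84 without replicate 1). MiR-133a turned to 0.053, 0.073, 0.88, 0.76, 0.69 and 0.60 with quantile normalization, positive controls, no scaling, edgeR, DESeq2 and without liver tumour replicate 2 (-2.41 without replicate 1). MiR-206 turned to 0.091 with quantile normalization, 0.51 without scaling and 0.094 with background subtracted, and miR-219 to 0.46, 0.86 and 0.26 in the same order and 0.056 with positive controls. MiR-499 turned to 0.19 with quantile normalization and 0.56 without scaling, where miR-124 and miR-367 were at 0.10 and 0.23. The call of miR-219 was also lost without a filter (adjusted p = 0.0563), with a pseudocount of 30 (adjusted p = 0.0757, 3 members called), without either normal liver and without liver tumour replicate 1, and those of miR-367 and miR-499 without normal liver replicate 2. The cause was not tested, except that fewer or more miRNAs enter under other filters.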
